A study of Sus scrofa with 18 samples.

Results

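Masseter, a jaw-closing muscle, was compared in the same piglets at the first and the fifth day of a model of critical illness. The comparison used the 10 masseter arrays of a series of 18, chosen by their titles, of which 5 were called controls (day 1) and 5 treated (day 5). The series asks in its title why chewing muscle keeps its function better than the biceps femoris of the thigh, from which the other 8 arrays came. The muscles came from 5 female piglets with a mean body weight of 26.9 kg, described as domestic in the protocols and as Eurasian wild boar in a breed tag. Over the 5 days all animals were ventilated and kept motionless under isoflurane with morphine and ketamine. They received glucose and antibiotics, pancuronium at 0.1 mg/kg/h, which blocks neuromuscular transmission, the glucocorticoid betamethasone at 0.1 mg/kg given 2 times a day, and Escherichia coli endotoxin at 36 µg/kg/h for 1 h. The day 1 arrays were labelled untreated and the day 5 arrays treated with all 3 agents. The sample descriptions give the day 1 and day 5 arrays of a number the same animal, so replicate numbers are animal numbers throughout. No animal went without the agents, so the passage of 4 further days, immobility and the 3 agents cannot be told apart.

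Acute quadriplegic myopathy, the disease named in the labels, is the muscle wasting and weakness of patients in intensive care. It is known for a loss of myosin relative to actin and for muscle membranes that no longer respond to stimulation, and blockers of transmission, glucocorticoids and sepsis are its known triggers. Atrophying muscle in general is known to make more of the ubiquitin ligases and proteasomes that break down protein and less of the enzymes of energy metabolism.

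Each array gave a log2 value for each of 23999 probe sets, where a difference of 1 is a doubling. Medians of the 10 arrays lay between 6.12 and 6.16. The 10 muscle fibre markers had mean levels from 14.37 to 14.41 at day 1 and from 13.77 to 14.29 at day 5, lower on every day 5 array, and 3 of them fell and 1 rose. For 9 epithelial markers the means were 5.31 to 5.56 at day 1 and 5.13 to 5.74 at day 5. Some arrays stood apart. The day 5 array of animal 1 had a mean squared deviation from its group of 0.162, against 0.0335 to 0.0882 on the other 9. Counts without it are given beside those that it moved most. The day 1 array of animal 2 had the highest adipocyte marker level (mean 9.20 over 7 genes, against 7.41 to 7.92 on the other day 1 arrays), and the day 5 array of animal 5 the highest level of immediate early genes (mean 9.01 over 29 genes, against 7.61 to 7.82). The actin 3' minus 5' difference, a measure of RNA quality, was 2.34 ± 0.09 at day 1 and 2.502 ± 0.13 at day 5 (SD, n = 5 each; p = 0.0556 by a two-sided exact permutation test). The part of these levels and of RNA quality in the results was not tested.

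A gene was called when its limma p-value, adjusted by the Benjamini-Hochberg method over all probe sets, was under 0.05. Each gene was read from the probe set with the highest mean. Of 9827 genes so measured, 1764 (18%) were called, 945 (9.62%) higher and 819 (8.33%) lower at day 5, with a median change over all genes of -0.02. Of the 1764 called genes, 1574 changed with the same sign in each of the 5 animals, as did 2721 of all 9827 genes. Calls and signs come from the same arrays, so the signs are no separate test of the calls. Among all 23999 probe sets, named or not, 13.8% were called. Without the day 5 array of animal 1, 2447 genes (24.9%) were called, 13.9% of all genes higher and 11% lower. With a block for animal, 1271 genes (12.9%) were called, 6.82% higher and 6.12% lower, and 1182 of them were among the 1764. Bulk RNA cannot tell fewer cells of a type from less RNA per cell. Values of arrays are given below in the order of animals 1 to 5.

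Among the genes described, AMPD3, OLFM1, TTC9, CDKN1A, FOS and RUNX1 had the largest rises. AMPD3, an AMP deaminase, had log2 values of 5.11, 7.26, 5.56, 5.42 and 4.94 at day 1 and 8.73, 11.46, 10.79, 11.63 and 11.57 at day 5. The 2 days were 36.2-fold apart on average (change 5.18, SE 0.59, limma adjusted p = 0.000683), and the lowest day 5 array, that of animal 1, lay above the highest day 1 array, that of animal 2. RUNX1, a transcription factor known to rise when muscle loses its nerve, stood at 6.35, 6.83, 6.42, 6.42 and 6.64 at day 1 and 9.19, 10.29, 10.52, 10.52 and 10.16 at day 5. Its day 1 arrays lay close together and all day 5 arrays were far above them, again with animal 1 lowest (12.2-fold, change 3.60, SE 0.23, limma adjusted p = 5.36e-05). TTC9 stood at 7.26, 7.51, 7.28, 7.64 and 7.74 at day 1 and 10.04, 11.82, 11.63, 11.31 and 11.78 at day 5, without overlap of the days and with animal 1 lowest at day 5 (14.2-fold, change 3.83, SE 0.30, limma adjusted p = 0.000152).

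CDKN1A, the inhibitor p21 of cyclin-dependent kinases, ranged widely at day 1, with 10.72, 10.36, 7.91, 9.62 and 7.50 at day 1 and 11.17, 13.71, 13.67, 13.24 and 12.99 at day 5. Animal 1 was highest at day 1 and lowest at day 5, and its own change was 0.45 while those of the other 4 lay between 3.35 and 5.76 (13.3-fold, change 3.73, SE 0.69, limma adjusted p = 0.00657). GADD45A, a stress gene that rises in denervated and atrophying muscle, had 7.58, 9.71, 8.56, 7.58 and 8.16 at day 1 and 8.88, 12.51, 12.17, 13.01 and 11.69 at day 5. The day 5 array of animal 1 lay below the day 1 array of animal 2, so the days overlapped (10.1-fold, change 3.33, SE 0.71, limma adjusted p = 0.0131). BTG2, an antiproliferative gene, rose 5.23-fold (change 2.39, SE 0.49, limma adjusted p = 0.0111) without overlap. Of 25 growth arrest and p53 target genes 6 rose and 3 fell (median 0.09), 5 rose and none fell with a block for animal, and 6 rose and 1 fell without the day 5 array of animal 1.

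ID1 and ID2 encode proteins that hold helix-loop-helix factors such as MYOD away from DNA. ID1 stood at 7.004, 6.05, 8.05, 6.15 and 7.72 at day 1 and 10.43, 10.15, 10.28, 9.32 and 11.37 at day 5 and rose 9.93-fold (change 3.31, SE 0.45, limma adjusted p = 0.00156). ID2 rose 7.28-fold (change 2.86, SE 0.33, limma adjusted p = 0.000653), from 6.89 to 8.56 at day 1 to 9.94 to 11.36 at day 5, and ID3, chosen after its values were seen, 2.87-fold (change 1.52, SE 0.33, limma adjusted p = 0.0144). In each of the 3 genes every day 5 array lay above every day 1 array, and the highest was that of animal 5. TEAD4, a muscle transcription factor, rose 1.84-fold (change 0.88, SE 0.13, limma adjusted p = 0.00197). No other TEAD4 probe set was called (changes of -0.18 and -0.01). MYOG, the myogenic factor known for its rise after denervation, lay between 4.28 and 4.60 on all 10 arrays, near their lower end (change -0.09, limma adjusted p = 0.573). Of 27 myogenic factors 6 rose and 1 fell (median 0.09), and the 3 ID genes were among those that rose. With a block for animal 5 rose and 2 fell.

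Further large rises were in genes of varied roles, none with an overlap of the days. OLFM1, which encodes the secreted protein olfactomedin 1, had 5.06, 5.38, 5.09, 5.27 and 4.68 at day 1 and 10.09, 10.27, 9.06, 7.95 and 8.78 at day 5, highest in animals 1 and 2 at day 5 (17.6-fold, change 4.14, SE 0.39, limma adjusted p = 0.000272). CPA1, the pancreatic digestive enzyme carboxypeptidase A1, had 5.35, 5.51, 5.36, 6.03 and 5.43 at day 1 and 7.68, 8.66, 10.70, 8.69 and 8.57 at day 5 (10.02-fold, change 3.32, SE 0.45, limma adjusted p = 0.00144). It was the 1 of 10 salivary and exocrine gland markers that was called, and the mean of that list ran from 5.73 to 5.98 at day 1 and from 5.997 to 6.24 at day 5. UCK2, which phosphorylates uridine and cytidine, stood at 8.94, 7.88, 8.21, 8.27 and 8.32 at day 1 and 9.06, 11.87, 11.03, 11.45 and 11.28 at day 5, with animal 1 at day 5 only just above the highest day 1 array (6.13-fold, change 2.62, SE 0.45, limma adjusted p = 0.00479). SMPDL3A, a phosphodiesterase, rose 5.78-fold (change 2.53, SE 0.48, limma adjusted p = 0.00719) and HSPA2, an HSP70 family member, 7.82-fold (change 2.97, SE 0.39, limma adjusted p = 0.00134). SCRT2, a zinc finger repressor, rose 6.41-fold (change 2.68, SE 0.65, limma adjusted p = 0.021), a call that was lost without the day 1 array of animal 5 (adjusted p = 0.0534).

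**Figure D1:**
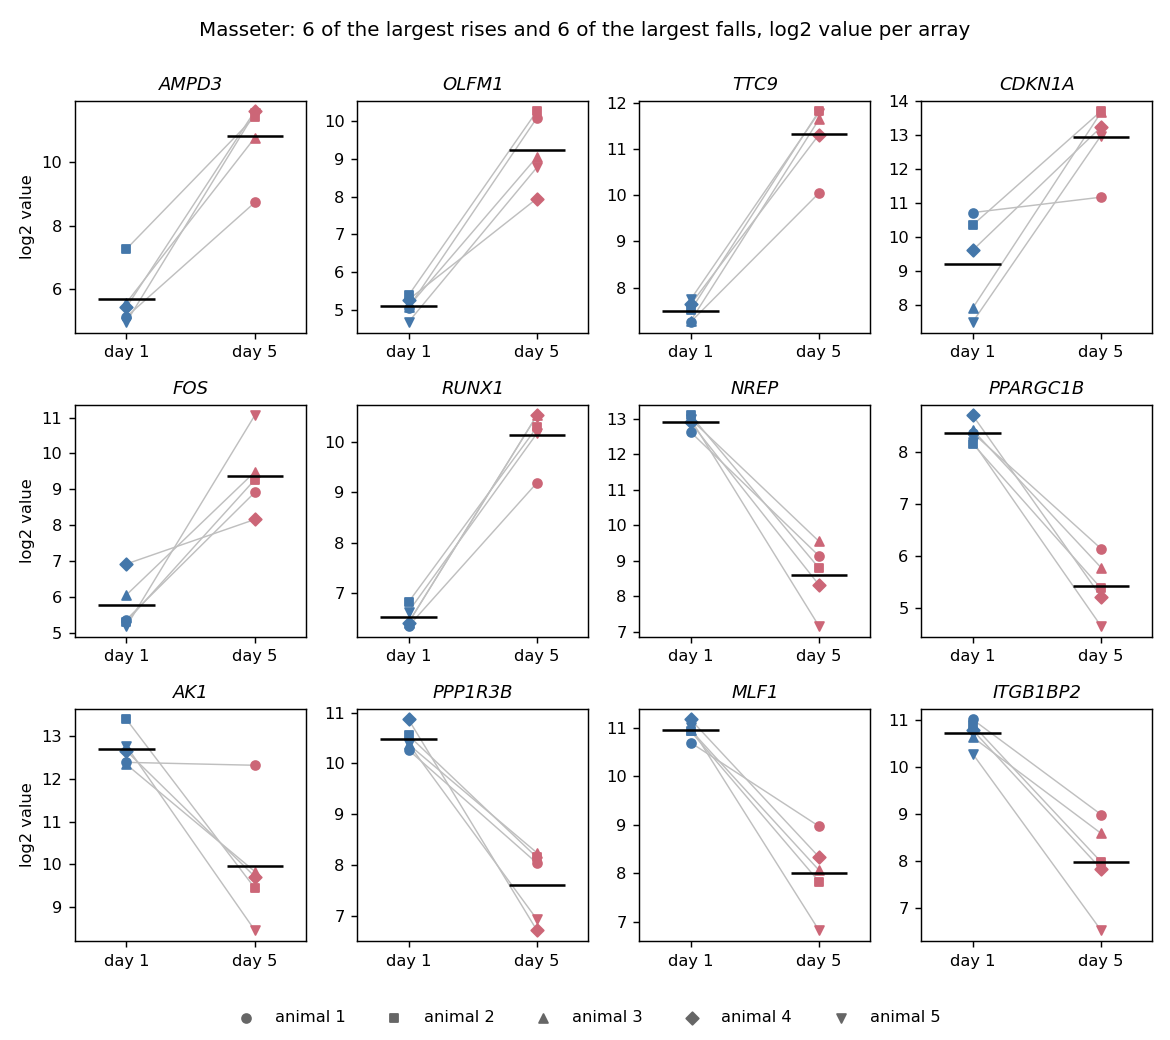
Log2 value (vertical axis) at day 1 and day 5 of 12 genes, 1 panel per gene, with a symbol and line per animal and the group mean as a bar; vertical axes do not start at 0. The days do not overlap in any of the 12, and the day 5 array of animal 1 (circle) is nearest to day 1 in AMPD3, TTC9, CDKN1A, RUNX1, AK1 and others.

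Among the largest falls, NREP, a gene named for neuronal regeneration and known in muscle as P311, had 12.63, 13.10, 12.99, 12.89 and 12.99 at day 1 and 9.14, 8.80, 9.55, 8.32 and 7.16 at day 5. The day 1 arrays lay close together and the day 5 arrays were spread more widely, lowest in animal 5 (20.05-fold, change -4.33, SE 0.37, limma adjusted p = 0.00018). PPARGC1B, the coactivator PGC-1 beta of mitochondrial genes, stood at 8.36, 8.15, 8.42, 8.70 and 8.19 at day 1 and 6.14, 5.38, 5.78, 5.22 and 4.65 at day 5 (7.62-fold, change -2.93, SE 0.24, limma adjusted p = 0.000179). Its relative PPARGC1A, PGC-1 alpha, overlapped between the days, with 9.998, 9.12, 9.75, 10.36 and 9.95 at day 1 and 8.97, 9.70, 7.77, 9.59 and 8.29 at day 5 (change -0.97, SE 0.37, limma adjusted p = 0.11). MLF1 fell 7.71-fold (change -2.95, SE 0.32, limma adjusted p = 0.000479) and ITGB1BP2, melusin of the muscle costamere, 6.64-fold (change -2.73, SE 0.38, limma adjusted p = 0.00177).

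AGTPBP1, an enzyme that removes glutamates from tubulin, fell 6.25-fold (change -2.64, SE 0.35, limma adjusted p = 0.0013). C1QTNF3, a secreted protein of the adiponectin family, fell 6.16-fold (change -2.62, SE 0.20, limma adjusted p = 0.000152), from 7.96 to 8.51 at day 1 to 4.88 to 6.09 at day 5. PADI2, which converts arginine in proteins to citrulline, was at 10.81, 8.37, 10.70, 11.68 and 11.14 at day 1 and 8.10, 8.18, 8.03, 8.15 and 7.18 at day 5. The day 1 array of animal 2 was far below the other day 1 arrays and only just above day 5 (6.11-fold, change -2.61, SE 0.52, limma adjusted p = 0.00953). CA2, carbonic anhydrase 2, fell 6.26-fold (change -2.65, SE 0.45, limma adjusted p = 0.0045), with day 5 values from 3.83 to 4.93 that lie near the lower end of the arrays, so that its fold is not exact. GRIK2, PEBP4, MTUS2 and PRXL2B fell 6.03-fold, 6.37-fold, 6.57-fold and 7.33-fold (limma adjusted p from 0.00018 to 0.00426). Of 5 further GRIK2 probe sets 1 was called in the opposite direction, and for PEBP4, MTUS2 and PRXL2B the pig and the human homolog annotations differ in name.

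The respiratory chain passes electrons from nutrients to oxygen through complexes I to IV and makes ATP at complex V. Subunits of these complexes fell together, and the median change was below 0 in each animal. Of 35 complex I subunits 28 fell and none rose (median -0.78), where 8.33% of all genes fell. Of 37 subunits of complexes II to V 28 fell and none rose (median -0.62). In 25 of the 35 and 25 of the 37 the days did not overlap, against 14.6% of all genes in either direction. The mean complex I level was 12.03, 11.49, 11.80, 11.88 and 11.79 at day 1 and 10.78, 11.13, 11.06, 10.86 and 11.14 at day 5. Median changes per animal ran from -0.31 in animal 2, whose day 1 level was lowest, to -1.30 in animal 1.

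NDUFS7, an iron-sulfur subunit of complex I chosen after its values were seen, had 12.31, 11.39, 12.03, 11.99 and 11.77 at day 1 and 10.15, 9.92, 10.60, 10.14 and 10.09 at day 5 (3.28-fold, change -1.71, SE 0.18, limma adjusted p = 0.000403). NDUFS1, NDUFA2 and NDUFB11 of the same complex fell 2.79-fold, 2.86-fold and 2.14-fold. Another NDUFS1 probe set was called in the opposite direction. SDHC, which anchors complex II in the membrane, had 11.37, 11.02, 11.41, 11.07 and 11.20 at day 1 and 9.50, 9.95, 9.79, 9.65 and 9.77 at day 5, with no overlap of the days (2.80-fold, change -1.48, SE 0.11, limma adjusted p = 0.000113). SDHB of complex II fell 1.73-fold (change -0.79, SE 0.10, limma adjusted p = 0.00114), COX7B of complex IV 1.93-fold (change -0.95, SE 0.13, limma adjusted p = 0.00166), and ATP5MC1, which encodes a subunit of the rotor of complex V and was chosen after its values were seen, 2.26-fold (change -1.17, SE 0.18, limma adjusted p = 0.00305).

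The citric acid cycle and the pyruvate dehydrogenase that feeds it moved the same way. Of 24 of their genes 14 fell and none rose (median -0.72). DLAT and DLD, the acetyltransferase and the lipoamide dehydrogenase of the pyruvate dehydrogenase complex, fell 2.52-fold (change -1.34, SE 0.15, limma adjusted p = 0.000637) and 1.92-fold (change -0.94, SE 0.12, limma adjusted p = 0.00124). DLAT stood at 10.64, 9.82, 10.39, 10.33 and 10.36 at day 1 and 9.24, 8.96, 8.94, 8.71 and 9.01 at day 5, so that the lowest day 1 array, that of animal 2, was still above day 5. PDHX, which holds DLD in the complex, fell 2.20-fold (change -1.14, SE 0.15, limma adjusted p = 0.00134), and SUCLA2 of succinyl-CoA synthetase, chosen after its values were seen, 2.74-fold (change -1.45, SE 0.21, limma adjusted p = 0.00197). PDK4, a kinase that switches pyruvate dehydrogenase off and is known to rise with fasting and glucocorticoids, overlapped between the days, with 12.29, 13.55, 13.19, 10.73 and 12.72 at day 1 and 11.99, 13.48, 13.21, 13.99 and 13.08 at day 5 (change 0.65, SE 0.51, limma adjusted p = 0.435). The day 1 array of animal 4 was the low one.

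Of 20 genes of fatty acid oxidation 7 fell and none rose (median -0.29). ECI1, an isomerase for unsaturated fatty acids, fell 3.53-fold (change -1.82, SE 0.24, limma adjusted p = 0.00128) and HADH and ETFA 1.73-fold and 1.82-fold without overlap. ACAA2, the last enzyme of the cycle, chosen after its values were seen, had 11.51, 10.60, 11.001, 11.38 and 11.42 at day 1 and 11.01, 9.56, 9.26, 8.88 and 8.56 at day 5 (3.31-fold, change -1.73, SE 0.40, limma adjusted p = 0.0175). Its day 5 array of animal 1 lay within the day 1 range while the other 4 lay below it. MB, the oxygen store myoglobin, fell 1.81-fold (change -0.85, SE 0.18, limma adjusted p = 0.0129).

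Mitochondrial genes did not all move with the enzymes. Of 70 mitochondrial ribosomal proteins 11 fell and 2 rose (median -0.20), and without the day 5 array of animal 1, where their mean level was 8.62 against 9.07 to 9.23 on the other day 5 arrays, 10 fell and 8 rose. With a block for animal 6 fell and 2 rose. MRPS36, which the older name counts as a ribosomal protein but which is now known as a subunit of the oxoglutarate dehydrogenase complex, fell 3.42-fold (change -1.77, SE 0.16, limma adjusted p = 0.00026). MRPL30 and MRPS15 fell 1.88-fold and 1.87-fold. Of 22 genes of mitochondrial import and chaperones 2 fell and none rose (median 0.01), where 8.33% of all genes fell. The 2 were TIMM44 (1.60-fold, change -0.68, SE 0.15, limma adjusted p = 0.0167) and TIMM8B (1.37-fold, change -0.45, SE 0.13, limma adjusted p = 0.0366). The TIMM8B call was lost with a block for animal (adjusted p = 0.093) and without any 1 of 7 arrays, all but the day 1 array of animal 3 and the day 5 arrays of animals 1 and 5 (adjusted p up to 0.0855). Another TIMM8B probe set was not called (change 0.24, limma adjusted p = 0.23). Without the day 5 array of animal 1, 4 genes of the list rose, where 13.9% of all genes rose.

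Enzymes of glycolysis and of glycogen fell in part, and here animal 1 differed from the others. Of 20 glycolytic genes 8 fell and 1 rose (median -0.50), and of 11 glycogen genes 4 fell and none rose (median -0.63). Median glycolytic changes per animal were 0.14 in animal 1 and from -0.89 to -0.55 in the other 4. LDHA, the muscle subunit of lactate dehydrogenase, chosen after its values were seen, had 13.78, 14.32, 13.54, 13.84 and 14.00 at day 1 and 13.61, 12.03, 11.87, 11.43 and 11.20 at day 5. At day 5 animal 1 lay within the day 1 range and the other 4 far below it (3.64-fold, change -1.86, SE 0.39, limma adjusted p = 0.0112). PGK1 and TPI1 fell 2.88-fold (change -1.53, SE 0.27, limma adjusted p = 0.00552) and 3.04-fold (change -1.60, SE 0.26, limma adjusted p = 0.00373) without overlap. The 1 gene that rose was GPD2, the mitochondrial glycerol phosphate dehydrogenase (3.29-fold, change 1.72, SE 0.35, limma adjusted p = 0.00985).

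PPP1R3B, which brings a phosphatase to glycogen and so favours its storage, had 10.27, 10.55, 10.38, 10.87 and 10.38 at day 1 and 8.04, 8.15, 8.24, 6.72 and 6.93 at day 5 (7.32-fold, change -2.87, SE 0.30, limma adjusted p = 0.000444). All day 5 arrays were far below every day 1 array, animal 1 included. GYS1, muscle glycogen synthase, fell 2.84-fold (change -1.504, SE 0.25, limma adjusted p = 0.00395). Without the day 5 array of animal 1, 6 of the 11 glycogen genes fell. The day 1 array of animal 2 held the highest mean level of both lists, at 11.40 for glycolysis (10.97 to 11.08 on the other day 1 arrays) and 10.93 for glycogen (10.49 to 10.61), beside its high adipocyte level.

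Adenine nucleotides and creatine carry phosphate between mitochondria and myofibrils. Around the rise of AMPD3, which removes AMP, 5 of 22 genes of these pathways fell (median -0.20). AK1, the adenylate kinase of the muscle cytosol, stood at 12.38, 13.38, 12.33, 12.64 and 12.76 at day 1 and 12.31, 9.45, 9.83, 9.72 and 8.46 at day 5. The day 5 array of animal 1 was just below the lowest day 1 array and the other 4 were far below it (6.70-fold, change -2.74, SE 0.58, limma adjusted p = 0.0119). ADSS1, which makes AMP from IMP in muscle, had 12.22, 12.52, 12.30, 12.48 and 12.58 at day 1 and 12.02, 9.99, 10.32, 10.26 and 9.46 at day 5, with the same split between animal 1 and the others (4.02-fold, change -2.01, SE 0.38, limma adjusted p = 0.00742). GAMT, the last enzyme of creatine synthesis, fell 5.06-fold (change -2.34, SE 0.38, limma adjusted p = 0.00347), from 9.71 to 10.39 at day 1 to 6.58 to 9.08 at day 5, highest there in animal 1. CKMT2, the mitochondrial creatine kinase of muscle, chosen after its values were seen, fell 2.85-fold (change -1.51, SE 0.35, limma adjusted p = 0.0173), and the days overlapped.

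Of 76 cytosolic ribosomal proteins, which make up the ribosomes outside the mitochondria, 38 rose and none fell (median 0.24), where 9.62% of all genes rose. The change was above 0 in 75 of the 76. The mean of the list was 13.27, 13.37, 13.25, 13.29 and 13.33 at day 1 and 13.54, 13.59, 13.55, 13.50 and 13.58 at day 5, and median changes per animal lay between 0.22 and 0.29. The number of called members fell to 8 of the 76 with a block for animal, where 6.82% of all genes rose, with the same median. RPL3, chosen after its values were seen, rose 1.72-fold (change 0.79, SE 0.16, limma adjusted p = 0.00931), RPL15 1.34-fold (change 0.42, SE 0.07, limma adjusted p = 0.00328), and RPL5 and RPS4X 1.31-fold each. Another RPL15 probe set was not called (change -0.05, limma adjusted p = 0.74).

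Of 44 translation factors 15 rose and none fell (median 0.33), which became 23 without the day 5 array of animal 1 and 9 with a block for animal. ETF1, which ends translation at stop codons, rose 1.87-fold (change 0.90, SE 0.14, limma adjusted p = 0.00305), EIF3L 1.52-fold and the elongation factor EEF2 1.32-fold. No other ETF1 probe set was called (changes from -0.13 to 0.42). EEF2 lay between 14.21 and 14.28 on all day 5 arrays and between 13.74 and 13.92 at day 1. Of 39 genes of ribosome assembly and the nucleolus 4 rose and none fell (median 0.28), where 9.62% of all genes rose. Without the day 5 array of animal 1, 14 rose, where 13.9% of all genes rose. Median changes per animal ran from 0.13 to 0.47 for the translation factors and from -0.22 in animal 1 to 0.75 in animal 3 for the nucleolar genes. POLR1D, a subunit of RNA polymerases I and III, was clear of the day 1 range in all animals (2.01-fold, change 1.01, SE 0.13, limma adjusted p = 0.0014). Another POLR1D probe set was not called (change -0.29, limma adjusted p = 0.432). Of 44 splicing factors 6 rose and 1 fell (14 and 2 without that array, 2 and 1 with a block for animal), with HNRNPC up 1.84-fold and the cold-inducible RBM3 down 1.92-fold (change -0.94, SE 0.21, limma adjusted p = 0.0142). With the block 6.82% of all genes rose and 6.12% fell.

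ATF4, the transcription factor that is translated when amino acids run short or proteins misfold, rose 1.83-fold (change 0.87, SE 0.12, limma adjusted p = 0.00186). Another ATF4 probe set was not called (change 0.09, limma adjusted p = 0.853). Genes of aminoacyl-tRNA synthesis and ATF4 targets were counted as 1 list. Of its 39 genes 3 rose and 6 fell (median -0.21), where 9.62% of all genes rose and 8.33% fell. Without the day 5 array of animal 1, 5 rose and 4 fell. PPP1R15A, which ends the block of translation in this response, rose 1.61-fold (change 0.69, SE 0.08, limma adjusted p = 0.000737), a call lost in a fit of all 18 arrays (adjusted p = 0.0839). SLC7A5, which imports leucine, fell 1.39-fold (change -0.48, SE 0.11, limma adjusted p = 0.0146). PHGDH and PSAT1 encode the first and second enzymes of serine synthesis and were chosen after their values were seen. The homolog column gives the PHGDH probe set another name. PHGDH stood at 9.40, 8.91, 6.35, 7.67 and 6.99 at day 1 and 6.08, 6.16, 5.74, 5.61 and 5.29 at day 5 (4.25-fold, change -2.09, SE 0.51, limma adjusted p = 0.023) and PSAT1 at 10.40, 10.18, 7.48, 7.71 and 7.38 at day 1 and 6.54, 7.65, 6.37, 5.57 and 4.65 at day 5 (5.56-fold, change -2.48, SE 0.73, limma adjusted p = 0.0467). Both were highest in animals 1 and 2 at day 1 and both were lower at day 5 in every animal.

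The PHGDH call was lost without the day 5 array of animal 5 (adjusted p = 0.0561). That of PSAT1 was lost without the day 1 array of animals 1, 2, 4 or 5 or the day 5 array of animals 3, 4 or 5 (adjusted p from 0.0523 to 0.105). With a block for animal PSAT1 had an adjusted p of 0.0111, and with animal as a random block 0.0519. A probe set that the human homolog column names PSPHL, after a phosphoserine phosphatase-like gene, was at 9.68, 9.64, 7.66, 8.49 and 8.31 at day 1 and 6.16, 7.09, 3.92, 3.76 and 4.35 at day 5 (12.99-fold, change -3.70, SE 0.67, limma adjusted p = 0.00601). Its day 5 values in animals 3 to 5 lie near the lower end of the arrays, so the fold is not exact.

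**Figure D2:**
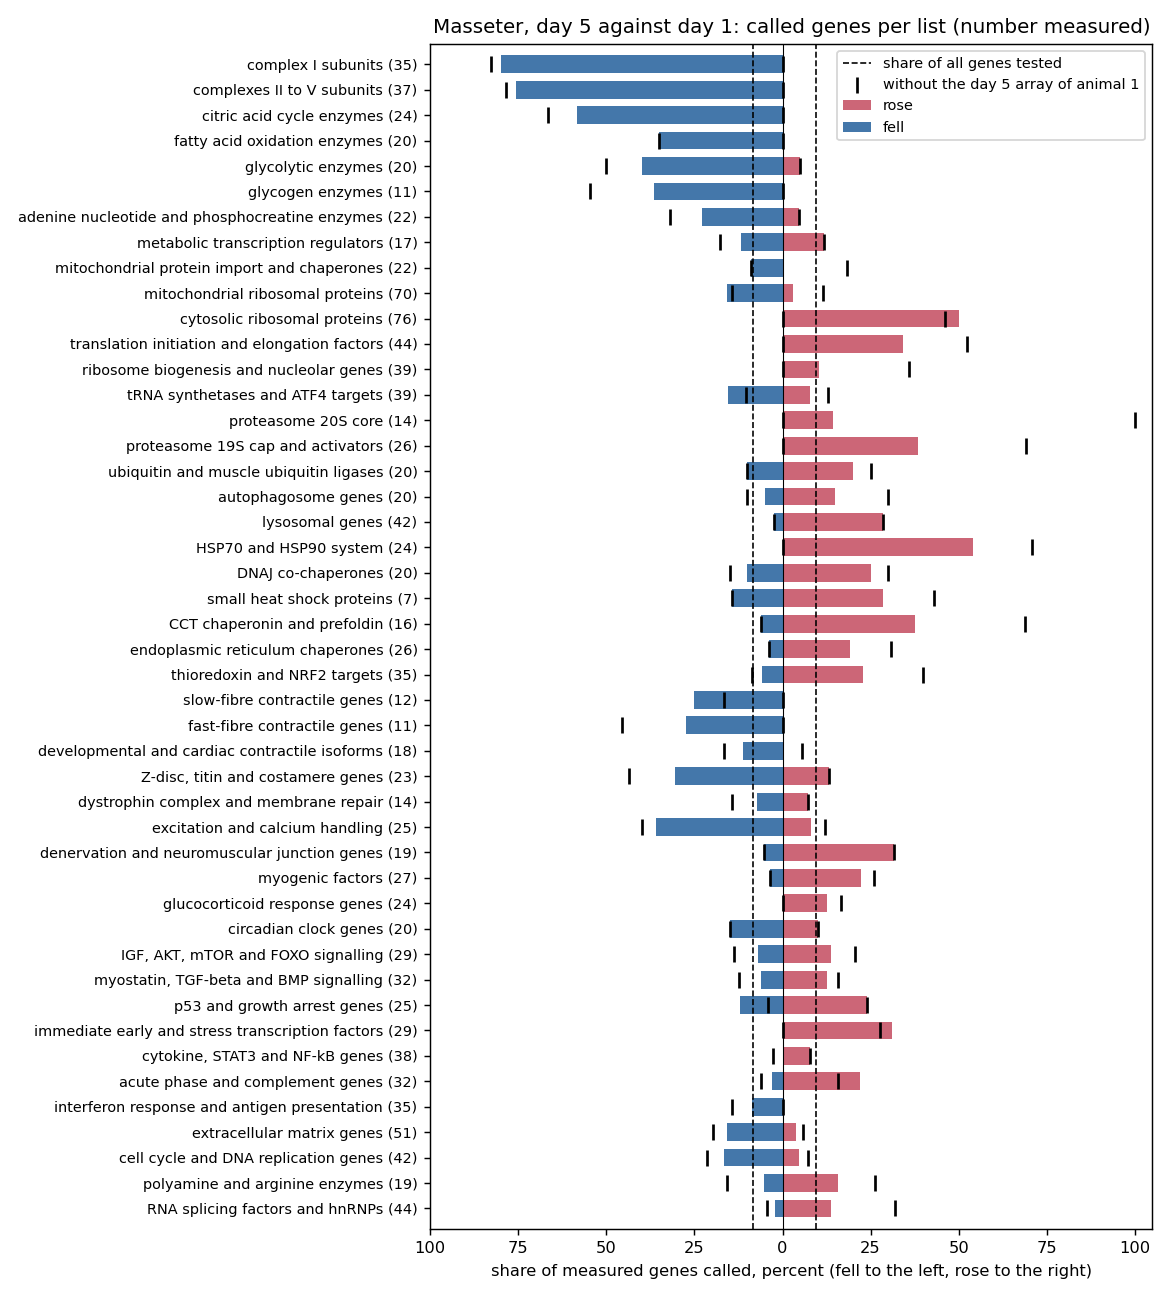
Share of the measured genes of each list that rose (right, red) or fell (left, blue) in masseter by day 5, in percent, with the number measured in brackets; dashed lines mark the shares among all genes tested (9.62% rose, 8.33% fell) and ticks the shares without the day 5 array of animal 1. The respiratory chain lists reach furthest to the left, and the tick of the 20S proteasome lies at 14 of 14 genes against a bar of 2 of 14.

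In the proteasome, which degrades proteins tagged with ubiquitin, 1 array decided the count. Of 14 subunits of its 20S core 2 rose (median 0.58), and 14 of 14 rose without the day 5 array of animal 1 (median 0.84), where 13.9% of all genes rose. The mean 20S level was 10.77, 10.74, 10.73, 10.68 and 10.81 at day 1. At day 5 it was 11.46, 11.52, 11.56 and 11.80 in animals 2 to 5 and 10.20 in animal 1. In 13 of the 14 genes the 4 other day 5 arrays lay above every day 1 array, and in 11 of the 14 the array of animal 1 lay below every day 1 array. Of 26 genes of the 19S cap and of proteasome activators 10 rose (median 0.63), and 18 rose without that array.

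PSMB5, the chymotrypsin-like subunit of the core, stood at 9.70, 9.98, 9.78, 9.75 and 9.79 at day 1 and 9.74, 10.69, 10.98, 10.55 and 11.13 at day 5 (1.77-fold, change 0.82, SE 0.22, limma adjusted p = 0.0331). The adjusted p was above 0.05 without any 1 of 8 arrays, namely all but the day 1 array of animal 2 and the day 5 array of animal 1, and reached 0.0743. ADRM1, a ubiquitin receptor of the cap, had 7.89, 7.93, 7.68, 8.15 and 8.05 at day 1 and 8.08, 9.69, 9.83, 9.58 and 9.83 at day 5 (2.75-fold, change 1.46, SE 0.30, limma adjusted p = 0.0113), and here too animal 1 stayed among the day 1 arrays. NFE2L1, the transcription factor that drives proteasome genes when proteasomes are short, stood at 9.50, 9.35, 9.68, 9.40 and 9.42 at day 1 and 10.11, 10.44, 10.22, 10.99 and 10.88 at day 5, above day 1 in all 5 animals and lowest in animal 1 (2.09-fold, change 1.06, SE 0.17, limma adjusted p = 0.00338). The levels of other lists on the day 5 array of animal 1 are in the plot of list levels.

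FBXO32, the muscle ubiquitin ligase atrogin-1, had 11.38, 11.07, 12.22, 11.10 and 11.60 at day 1 and 12.48, 12.32, 12.89, 14.09 and 12.69 at day 5 (2.68-fold, change 1.42, SE 0.33, limma adjusted p = 0.0183). All day 5 arrays lay above day 1, and animal 4 was highest. FBXO31 fell 1.66-fold (change -0.73), a call lost with a block for animal (adjusted p = 0.0555) and without the day 1 array of animals 1, 2, 4 or 5 (adjusted p up to 0.0551). Of 20 ubiquitin and ligase genes 4 rose and 2 fell (median 0.12), and 2 rose and none fell with a block for animal. Among all genes 9.62% rose and 8.33% fell, with 6.82% and 6.12% in the fit with the block.

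SQSTM1, the receptor p62 that carries ubiquitin-tagged cargo to autophagosomes, had 11.17, 11.12, 11.22, 11.17 and 10.97 at day 1 and 12.62, 11.91, 12.66, 13.44 and 13.10 at day 5 and rose 3.06-fold (change 1.62, SE 0.23, limma adjusted p = 0.00198). GABARAP and ATG3, which conjugate to and build autophagosome membranes, rose 1.74-fold (change 0.80, SE 0.10, limma adjusted p = 0.0011) and 1.44-fold (change 0.53, SE 0.10, limma adjusted p = 0.00772). Of 20 autophagosome genes 3 rose and 1 fell (median 0.10), and 6 rose and 2 fell without the day 5 array of animal 1, while 3 rose and none fell with a block for animal. Among all genes 9.62% rose and 8.33% fell, with 13.9% and 11% without that array and 6.82% and 6.12% with the block. Of 42 lysosomal genes 12 rose and 1 fell (median 0.15), with the same numbers without that array and 11 and none with a block for animal. Among them CTSD, a lysosomal protease chosen after its values were seen, stood at 8.60, 8.73, 8.82, 8.70 and 8.70 at day 1 and 9.07, 10.44, 10.33, 10.04 and 10.70 at day 5, lowest at day 5 in animal 1 (2.65-fold, change 1.41, SE 0.25, limma adjusted p = 0.0058). CTSB, a further protease, rose 1.87-fold (change 0.90, SE 0.14, limma adjusted p = 0.00285), NPC1, a cholesterol exporter, 2.45-fold (change 1.29, SE 0.16, limma adjusted p = 0.000981), and the membrane protein CD63 1.87-fold (change 0.90, SE 0.10, limma adjusted p = 0.000513).

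Chaperones of the cytosol fold new and damaged proteins. Of 24 genes of the HSP70 and HSP90 system 13 rose and none fell (median 0.81), and 11 were not called. HSP90AB1, the constitutive HSP90, had 12.27, 12.19, 12.14, 12.24 and 12.43 at day 1 and 13.04, 13.79, 13.37, 13.40 and 13.85 at day 5 (2.35-fold, change 1.24, SE 0.15, limma adjusted p = 0.000869). ST13 and STIP1, which link HSP70 to HSP90, rose 1.86-fold (change 0.89, SE 0.09, limma adjusted p = 0.000444) and, chosen after its values were seen, 2.70-fold (change 1.44, SE 0.27, limma adjusted p = 0.00682). HSPH1, an exchange factor of HSP70 chosen likewise, stood at 7.78, 8.34, 7.96, 7.15 and 7.32 at day 1 and 10.43, 11.15, 8.29, 9.23 and 11.03 at day 5 (4.98-fold, change 2.32, SE 0.51, limma adjusted p = 0.0151). The days overlapped in animal 3, whose day 5 array was the lowest, and the call was lost in a fit of all 18 arrays (adjusted p = 0.0583). Median changes of the list per animal ran from 0.24 in animal 1 to 1.30 in animal 5.

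Of 16 genes of the CCT chaperonin, which folds actin and tubulin, and of its partner prefoldin 6 rose and 1 fell (median 0.50), 11 rose and 1 fell without the day 5 array of animal 1, and 4 rose and none fell with a block for animal. CCT4 rose 2.11-fold (change 1.07, SE 0.14, limma adjusted p = 0.00145) and CCT2 2.06-fold (change 1.04, SE 0.16, limma adjusted p = 0.00304). Of 20 DNAJ co-chaperones 5 rose and 2 fell (median 0.10), where 9.62% of all genes rose and 8.33% fell. Of 7 small heat shock proteins 2 rose and 1 fell (median 0.42), and changes were above 0 in 5 of the 7. DNAJA1 rose 3.83-fold (change 1.94, SE 0.32, limma adjusted p = 0.00418; chosen after its values were seen) and DNAJB6 2.01-fold, while DNAJB5 fell 3.42-fold (change -1.77, SE 0.28, limma adjusted p = 0.003) and DNAJA4 3.13-fold (change -1.64, SE 0.26, limma adjusted p = 0.00291). The DNAJA4 call was lost in a fit of all 18 arrays (adjusted p = 0.0964). HSPB8, which sends damaged filamin to autophagy, had 11.43, 11.24, 10.92, 11.46 and 11.18 at day 1 and 12.33, 13.08, 11.68, 12.56 and 13.46 at day 5 (2.601-fold, change 1.38, SE 0.28, limma adjusted p = 0.011), and HSPB6 had 12.43, 12.05, 12.41, 12.30 and 12.22 at day 1 and 11.95, 11.48, 11.42, 10.69 and 10.31 at day 5 (2.16-fold, change -1.11, SE 0.27, limma adjusted p = 0.0214). Both were furthest from day 1 in animal 5. In a fit of all 18 arrays the adjusted p of HSPB8 was 0.0517 and that of HSPB6 0.0862, and the HSPB6 call was also lost without the day 1 array of animal 1 (0.0519) or animal 4 (0.0502).

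In the endoplasmic reticulum 5 of 26 chaperone genes rose and 1 fell (median 0.29), and 8 rose without the day 5 array of animal 1. P4HB, a protein disulfide isomerase, had 9.92, 9.75, 9.99, 9.96 and 9.88 at day 1 and 10.93, 11.57, 11.32, 11.19 and 12.03 at day 5 (2.84-fold, change 1.51, SE 0.18, limma adjusted p = 0.000729) and XBP1, a transcription factor of the unfolded protein response, rose 2.06-fold (change 1.04, SE 0.17, limma adjusted p = 0.00388). Of 35 genes of the thioredoxin system and NRF2 targets, which counter oxidation, 8 rose and 2 fell (median 0.46), and 14 rose and 3 fell without the day 5 array of animal 1, while 12 rose and 1 fell with a block for animal. TXN, thioredoxin, stood at 10.61, 11.05, 10.89, 10.45 and 10.63 at day 1 and 11.71, 13.04, 12.16, 11.83 and 13.35 at day 5 (3.23-fold, change 1.69, SE 0.30, limma adjusted p = 0.0058). ME1, which makes NADPH, had 7.24, 8.998, 7.49, 6.70 and 7.39 at day 1 and 9.70, 9.42, 9.52, 9.70 and 9.84 at day 5 (4.20-fold, change 2.07, SE 0.34, limma adjusted p = 0.00392), where the day 1 array of animal 2 was the high one. No other ME1 probe set was called (changes of 1.18 and -0.24). TXNRD1 and HMOX1, chosen after their values were seen, rose 3.60-fold (change 1.85, SE 0.36, limma adjusted p = 0.0086) and 2.71-fold (change 1.44, SE 0.32, limma adjusted p = 0.016), and HMOX1 was highest in animal 1 at day 5 (9.29, against 7.40 to 8.61).

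**Figure D3:**
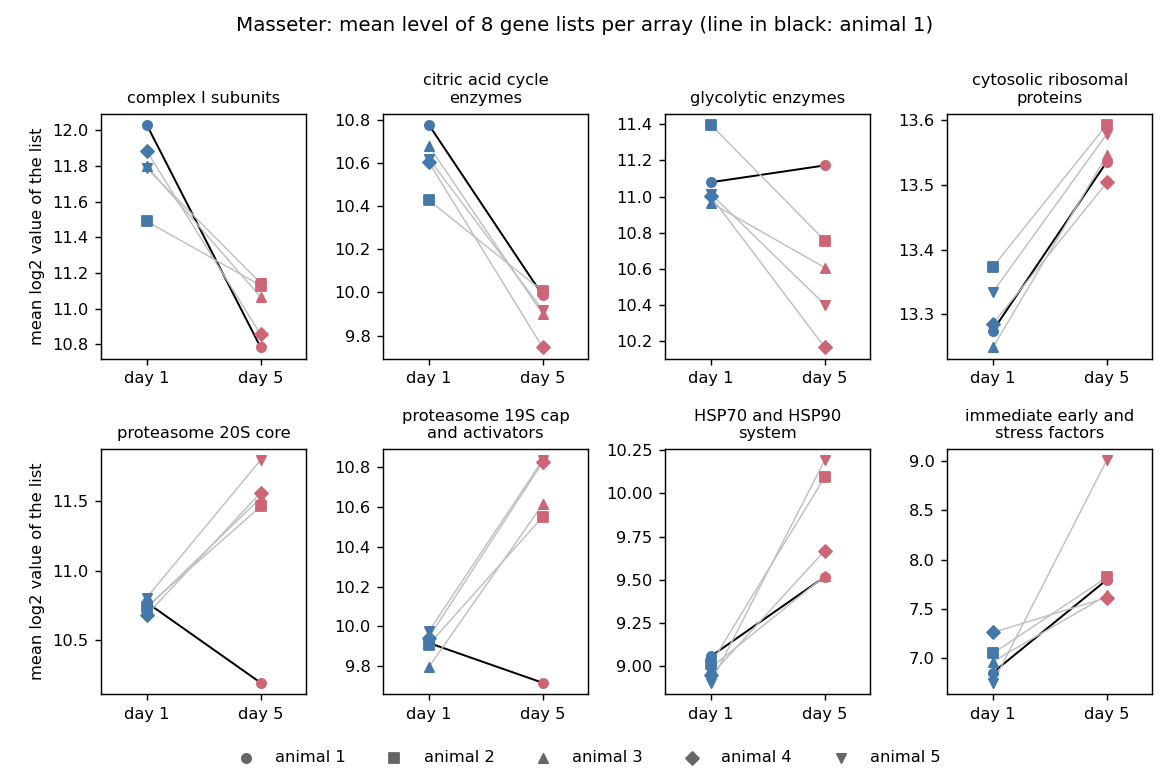
Mean log2 value (vertical axis, not from 0) of 8 gene lists at day 1 and day 5, with 1 line per animal and that of animal 1 in black. The line of animal 1 falls in both proteasome panels, where those of the other 4 animals rise, and is the only one that does not fall for glycolytic enzymes; animal 5 stands apart in the immediate early panel at 9.01.

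Contractile genes of the fibre fell in part. The level of ACTA1, skeletal actin and a gene near the upper end of the arrays, lay between 15.02 and 15.12 on all 10 arrays (change -0.05, SE 0.06, limma adjusted p = 0.663). MYH7, the slow myosin heavy chain, had 14.60, 14.31, 14.67, 14.56 and 14.42 at day 1 and 13.94, 14.43, 14.50, 14.26 and 14.22 at day 5 (change -0.24, SE 0.12, limma adjusted p = 0.199). Its days overlapped, and animal 1 was lowest at day 5. MYH4, a fast heavy chain whose probe set the homolog column names otherwise, had 11.88, 14.28, 12.04, 13.46 and 14.28 at day 1 and 12.18, 12.49, 11.76, 11.50 and 11.96 at day 5 (change -1.21, limma adjusted p = 0.123). The day 1 arrays of animals 2, 4 and 5 were high and those of 1 and 3 lay among the day 5 arrays. MYH1, another fast heavy chain, was called lower at day 5 (change -0.66). That call was lost with a block for animal (limma adjusted p = 0.0851). It was also lost without the day 1 array of animals 1 or 4 or the day 5 array of animals 4 or 5 (adjusted p from 0.0596 to 0.0747).

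Of 12 slow-fibre genes 3 fell and none rose (median -0.21; 2 fell without the day 5 array of animal 1), and of 11 fast-fibre genes 3 fell and none rose (median -0.51; 5 fell without that array). The days did not overlap, day 5 being lower, in 7 of the 11 fast-fibre genes and in 2 of the 12 slow-fibre genes, against 14.6% of all genes in either direction. The difference between these lists was not tested. MYL3, a slow myosin light chain, fell 2.74-fold (change -1.46, SE 0.27, limma adjusted p = 0.00713), a call lost in a fit of all 18 arrays (adjusted p = 0.116). Both calcium pumps that return calcium to the sarcoplasmic reticulum fell. ATP2A2, the slow one, was at 14.08, 13.75, 14.27, 14.06 and 14.03 at day 1 and 13.21, 13.31, 13.33, 13.02 and 13.06 at day 5 (1.81-fold, change -0.85, SE 0.11, limma adjusted p = 0.00116) and ATP2A1, the fast one, at 12.48, 13.04, 12.33, 12.82 and 13.04 at day 1 and 11.64, 10.19, 11.40, 12.05 and 10.16 at day 5 (3.15-fold, change -1.65, SE 0.36, limma adjusted p = 0.014). The day 5 arrays of ATP2A2 lay close together, while those of ATP2A1 were lowest in animals 2 and 5. TNNT3, fast troponin T, fell 1.46-fold (change -0.54, SE 0.11, limma adjusted p = 0.0115). Another TNNT3 probe set was not called (change 0.35, limma adjusted p = 0.0819).

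At the Z-disc and costamere, which anchor the sarcomere to itself and to the membrane, 7 of 23 genes fell and 3 rose (median -0.50). SMPX, a small protein of the costamere, had 13.42, 13.55, 13.39, 13.24 and 13.04 at day 1 and 11.69, 12.07, 11.49, 10.90 and 11.30 at day 5 (3.57-fold, change -1.84, SE 0.19, limma adjusted p = 0.000453). NRAP fell 1.93-fold (change -0.95, SE 0.15, limma adjusted p = 0.00321) and LDB3, a Z-disc protein chosen after its values were seen, 2.37-fold (change -1.24, SE 0.26, limma adjusted p = 0.0112). DES, desmin of the intermediate filaments, rose 1.48-fold (change 0.56, SE 0.13, limma adjusted p = 0.0185), with animal 1 highest at day 5. The mean level of the list was 11.70 on the day 5 array of animal 1 and 11.13 to 11.27 on the other 4.

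Genes of excitation and calcium handling fell more often than they rose, with 9 of 25 down and 2 up (median -0.30). HRC, which binds calcium in the sarcoplasmic reticulum, fell 2.43-fold (change -1.28, SE 0.17, limma adjusted p = 0.00126). ATP2B1, a calcium pump of the outer membrane, rose 2.66-fold (change 1.41, SE 0.20, limma adjusted p = 0.00176) without overlap.

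Of 19 denervation and neuromuscular junction genes 6 rose and 1 fell (median -0.06), with RUNX1, GADD45A and NREP among the called genes. With a block for animal 3 rose and 1 fell. HDAC4, a repressor that links loss of nerve to muscle genes, rose 1.83-fold (change 0.87, SE 0.17, limma adjusted p = 0.00946). UCHL1, a ubiquitin hydrolase of nerve chosen after its values were seen, had 4.78, 5.03, 5.33, 4.88 and 4.64 at day 1 and 4.93, 8.40, 6.18, 7.18 and 8.40 at day 5. Animal 1 stayed within the day 1 range at day 5 (4.25-fold, change 2.09, SE 0.59, limma adjusted p = 0.0394), and the call was lost with a block for animal (adjusted p = 0.0558) and without any 1 of 8 arrays, namely all but the day 5 arrays of animals 1 and 3 (adjusted p up to 0.0894). CHRNA1, the alpha subunit of the acetylcholine receptor, known to rise after denervation, lay between 7.42 and 8.12 at day 1 and between 6.86 and 8.08 at day 5 (change -0.21, SE 0.23, limma adjusted p = 0.599).

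Of 24 known glucocorticoid response genes 3 rose and none fell (median 0.18), where 9.62% of all genes rose. FKBP5, a direct target, had 10.50, 11.16, 10.32, 10.36 and 10.35 at day 1 and 11.10, 12.15, 10.09, 11.63 and 11.84 at day 5 (change 0.82, SE 0.34, limma adjusted p = 0.142). It was higher at day 5 in animals 1, 2, 4 and 5 and lower in animal 3, and without the day 5 array of animal 3 its adjusted p was 0.0135. FOXO1, which drives atrophy genes, stood at 7.81, 9.09, 8.57, 8.30 and 8.02 at day 1 and 8.37, 11.09, 9.51, 10.20 and 10.08 at day 5, higher at day 5 in each animal (2.82-fold, change 1.49, SE 0.44, limma adjusted p = 0.0447). Its call held with a block for animal (adjusted p = 0.0178) and was lost without any 1 of 8 arrays, namely all but the day 1 array of animal 2 and the day 5 array of animal 1 (adjusted p up to 0.103). SLC19A2, a thiamine transporter, had 6.05, 5.27, 6.09, 5.61 and 5.81 at day 1 and 9.71, 6.70, 6.57, 7.05 and 7.71 at day 5 (3.44-fold, change 1.78, SE 0.52, limma adjusted p = 0.0434), highest at day 5 in animal 1. That call was lost without any 1 of 7 arrays, namely all but the day 5 arrays of animals 1, 2 and 3 (adjusted p up to 0.0934). NR3C1, the receptor itself, had a change of -0.04 (limma adjusted p = 0.938).

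MSTN, myostatin, which limits muscle growth, had 7.59, 8.35, 7.68, 7.67 and 8.43 at day 1 and 7.46, 5.44, 6.61, 5.69 and 4.09 at day 5. The fall was small in animal 1 and 4.34 in animal 5 (4.25-fold, change -2.09, SE 0.52, limma adjusted p = 0.024), and the call was lost with a block for animal (adjusted p = 0.0622) and without any 1 of 4 arrays, namely the day 1 arrays of animals 2 and 5 and the day 5 arrays of animals 2 and 4 (adjusted p up to 0.0629). TGFB3, a growth factor of the same family, rose 1.78-fold (change 0.83, SE 0.17, limma adjusted p = 0.00971). IGF2R, the receptor that clears IGF2, rose 1.96-fold (change 0.97, SE 0.20, limma adjusted p = 0.0114), and IGF1 overlapped between the days (change -0.96, SE 0.35, limma adjusted p = 0.0929; 0.0473 without the day 1 array of animal 2). Of 29 genes of IGF, AKT, mTOR and FOXO signalling 4 rose and 2 fell (median 0.23; 2 and 3 with a block for animal, 6 and 4 without the day 5 array of animal 1), and of 32 of myostatin, TGF-beta and BMP signalling 4 rose, TGFB3 and the 3 ID genes, and 2 fell (median 0.03; 5 and 4 without that array, 4 and 1 with the block). Among 20 clock genes 2 rose and 3 fell (median 0.05). Among all genes 9.62% rose and 8.33% fell. CRY2, a repressor of the clock, rose 2.69-fold (change 1.43, SE 0.28, limma adjusted p = 0.00865), and PER3 and HLF fell 2.76-fold (change -1.47, SE 0.24, limma adjusted p = 0.00347) and 2.29-fold (change -1.19, SE 0.22, limma adjusted p = 0.00688). No other CRY2 probe set was called (changes of 0.04 and 0.05). The labels used here do not state the hour of sampling.

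Cells switch immediate early genes on within minutes of a stimulus. Of 29 such genes and stress factors 9 rose and none fell (median 0.88), where 9.62% of all genes rose. With a block for animal 6 rose, where 6.82% of all genes rose. Median changes per animal were 0.68, 0.39, 0.38, 0.16 and 2.26, largest in animal 5. FOS, an AP-1 transcription factor subunit, had 5.37, 5.31, 6.06, 6.92 and 5.18 at day 1 and 8.91, 9.27, 9.49, 8.16 and 11.06 at day 5 (12.2-fold, change 3.61, SE 0.50, limma adjusted p = 0.00172), highest in animal 5. CCN1, a secreted matrix protein of this class, had 6.41, 6.89, 6.55, 5.68 and 5.59 at day 1 and 8.33, 9.69, 8.16, 8.84 and 8.66 at day 5 (5.70-fold, change 2.51, SE 0.32, limma adjusted p = 0.00121). EGR1, chosen after its values were seen, stood at 6.995, 5.80, 6.79, 7.30 and 5.33 at day 1 and 8.01, 8.13, 8.86, 7.995 and 11.22 at day 5 (5.28-fold, change 2.40, SE 0.62, limma adjusted p = 0.0288), again highest in animal 5. The EGR1 call was lost with a block for animal (adjusted p = 0.08), in a fit of all 18 arrays (0.0554) and without the day 1 arrays of animals 2 or 5 or the day 5 array of animal 3 (adjusted p from 0.0506 to 0.0733). ATF3 had 5.79, 5.77, 5.65, 7.34 and 5.18 at day 1 and 5.78, 6.73, 5.85, 5.74 and 10.79 at day 5, where the day 1 array of animal 4 and the day 5 arrays of animals 2 and 5 were the high ones (change 1.03, SE 0.90, limma adjusted p = 0.484).

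Of 38 cytokine, STAT3 and NF-kB genes 3 rose and none fell (median 0.15), where 9.62% of all genes rose, and 1 fell without the day 5 array of animal 1. IL6 stood at 4.45, 4.38, 4.54, 4.68 and 4.55 at day 1 and 4.77, 4.63, 4.73, 4.49 and 7.19 at day 5, so that 1 array, that of animal 5 at day 5, was above the rest (change 0.64, SE 0.44, limma adjusted p = 0.375). CCL2, a chemokine for monocytes, had 6.61, 5.54, 5.87, 10.75 and 6.60 at day 1 and 7.48, 5.995, 8.79, 6.32 and 11.12 at day 5, high in animal 4 at day 1 and in animals 5 and 3 at day 5 (change 0.87, SE 1.15, limma adjusted p = 0.66). CXCL2 and the adhesion gene ICAM1 were also highest at day 1 in animal 4 and at day 5 in animal 5. STAT3 had an adjusted p of 0.0963, and of 0.00333 without the day 5 array of animal 4, the 1 day 5 array below day 1. TNFRSF12A, the receptor of TWEAK, known for its role in muscle wasting, rose 2.34-fold (change 1.22, SE 0.23, limma adjusted p = 0.00774), and JAK1 1.93-fold (change 0.95, SE 0.12, limma adjusted p = 0.000961). In a fit of all 18 arrays the TNFRSF12A call was lost (adjusted p = 0.131). Of 35 interferon response and antigen presentation genes 3 fell and none rose (median -0.11), where 8.33% of all genes fell. Without the day 5 array of animal 1, 5 fell, where 11% of all genes fell.

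Complement tags microbes and damaged cells for removal. Of 32 acute phase and complement genes 7 rose and 1 fell (median 0.46), where 9.62% of all genes rose, and 5 rose and 2 fell without the day 5 array of animal 1. C1S, a protease of the first complement component, had 9.57, 9.81, 10.18, 9.76 and 10.03 at day 1 and 12.49, 11.96, 11.997, 10.84 and 11.35 at day 5 (3.63-fold, change 1.86, SE 0.27, limma adjusted p = 0.00204) and its partner C1R rose 2.30-fold (change 1.20, SE 0.20, limma adjusted p = 0.00426). C4A, chosen after its values were seen, had 6.64, 8.38, 7.70, 7.24 and 7.38 at day 1 and 10.84, 10.90, 10.17, 8.52 and 8.95 at day 5 (5.31-fold, change 2.41, SE 0.49, limma adjusted p = 0.0105). C1S and C4A were highest in animals 1 to 3 at day 5 and lower in animals 4 and 5. C3, the central component, was lower by 1.98-fold in the probe set with the highest mean (change -0.99, SE 0.14, limma adjusted p = 0.00199). Another C3 probe set was called higher, with a larger change (2.27, SE 0.51, limma adjusted p = 0.0153), so the direction of C3 is open. PTX3, a pentraxin that binds microbes and C1q, had 5.21, 5.59, 4.43, 4.99 and 4.62 at day 1 and 8.26, 10.14, 7.32, 5.74 and 9.35 at day 5 (9.16-fold, change 3.20, SE 0.69, limma adjusted p = 0.0135), lowest at day 5 in animal 4.

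Markers of immune cells were counted per cell type, where 9.62% of all genes rose and 8.33% fell. Of 11 macrophage and monocyte markers 2 rose (median 0.66), CYBB of the phagocyte oxidase (2.20-fold, change 1.14, SE 0.21, limma adjusted p = 0.00655) and TYROBP, an adaptor of myeloid receptors (1.72-fold, change 0.78, SE 0.22, limma adjusted p = 0.0401). The TYROBP call was lost with a block for animal (adjusted p = 0.0796) and without any 1 of 8 arrays, namely all but the day 1 array of animal 2 and the day 5 array of animal 4 (adjusted p up to 0.0936). The homolog column gives the CYBB probe set another name. The mean of the list ran from 6.18 to 6.86 at day 1 and from 6.54 to 7.52 at day 5, highest in animal 1. Changes were above 0 in 8 of the 11, and median changes per animal were 1.52, 0.02, 0.08, 0.17 and 0.61. Without the day 5 array of animal 1, 1 rose and 1 fell (median 0.40). None of 4 neutrophil markers was called (mean 4.50 to 5.95 at day 1 and 4.49 to 5.67 at day 5), and 1 of 10 lymphocyte markers, BLNK, rose (2.97-fold, change 1.57, SE 0.36, limma adjusted p = 0.0177), and 1 fell without the day 5 array of animal 1. The part of these cells in the rises of complement and lysosomal genes was not tested.

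Matrix genes fell in 8 cases and rose in 2 of 51 (median -0.41). Among all genes, for this and the following lists, 8.33% fell and 9.62% rose. MFAP5, a microfibril protein that is also 1 of the fibroblast markers, had 9.61, 10.17, 9.88, 9.30 and 9.05 at day 1 and 8.26, 8.48, 7.98, 7.45 and 6.94 at day 5 (3.43-fold, change -1.78, SE 0.30, limma adjusted p = 0.00447), lower at day 5 in each animal. LOXL2, a collagen cross-linker, fell 1.99-fold (change -0.99, SE 0.16, limma adjusted p = 0.00338), and TIMP2, an inhibitor of matrix proteases, rose 2.96-fold (change 1.56, SE 0.22, limma adjusted p = 0.00172). Of 8 fibroblast markers 1 fell (median -1.01), 2 fell without the day 5 array of animal 1, and 4 with a block for animal. Their mean was 10.30 to 11.32 at day 1 and 9.02 to 10.87 at day 5, with median changes from -0.11 in animal 1 to -1.76 in animal 5. Of 42 cell cycle genes 7 fell and 2 rose (median -0.24), and 5 fell and 1 rose with a block for animal. With that block 6.12% of all genes fell and 6.82% rose. TOP2A, needed to separate chromosomes and chosen after its values were seen, had 6.67, 5.86, 8.25, 5.72 and 5.95 at day 1 and 4.87, 5.30, 4.32, 4.07 and 4.01 at day 5 (3.93-fold, change -1.97, SE 0.46, limma adjusted p = 0.0187), highest at day 1 in animal 3. Among satellite cell markers CALCR fell 3.02-fold (change -1.60, SE 0.33, limma adjusted p = 0.0115), 1 of 8. Of 10 endothelial markers 1 rose, VWF (1.77-fold, change 0.82, SE 0.13, limma adjusted p = 0.00352), and none fell. The change was below 0 in 6 of the 10 (median -0.08). No other VWF probe set was called (changes of -0.23 and -0.10). Of 10 smooth muscle and pericyte markers 1 rose and 1 fell (median -0.14), the latter being CNN1 (2.81-fold, change -1.49, SE 0.20, limma adjusted p = 0.00163).

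**Figure D4:**
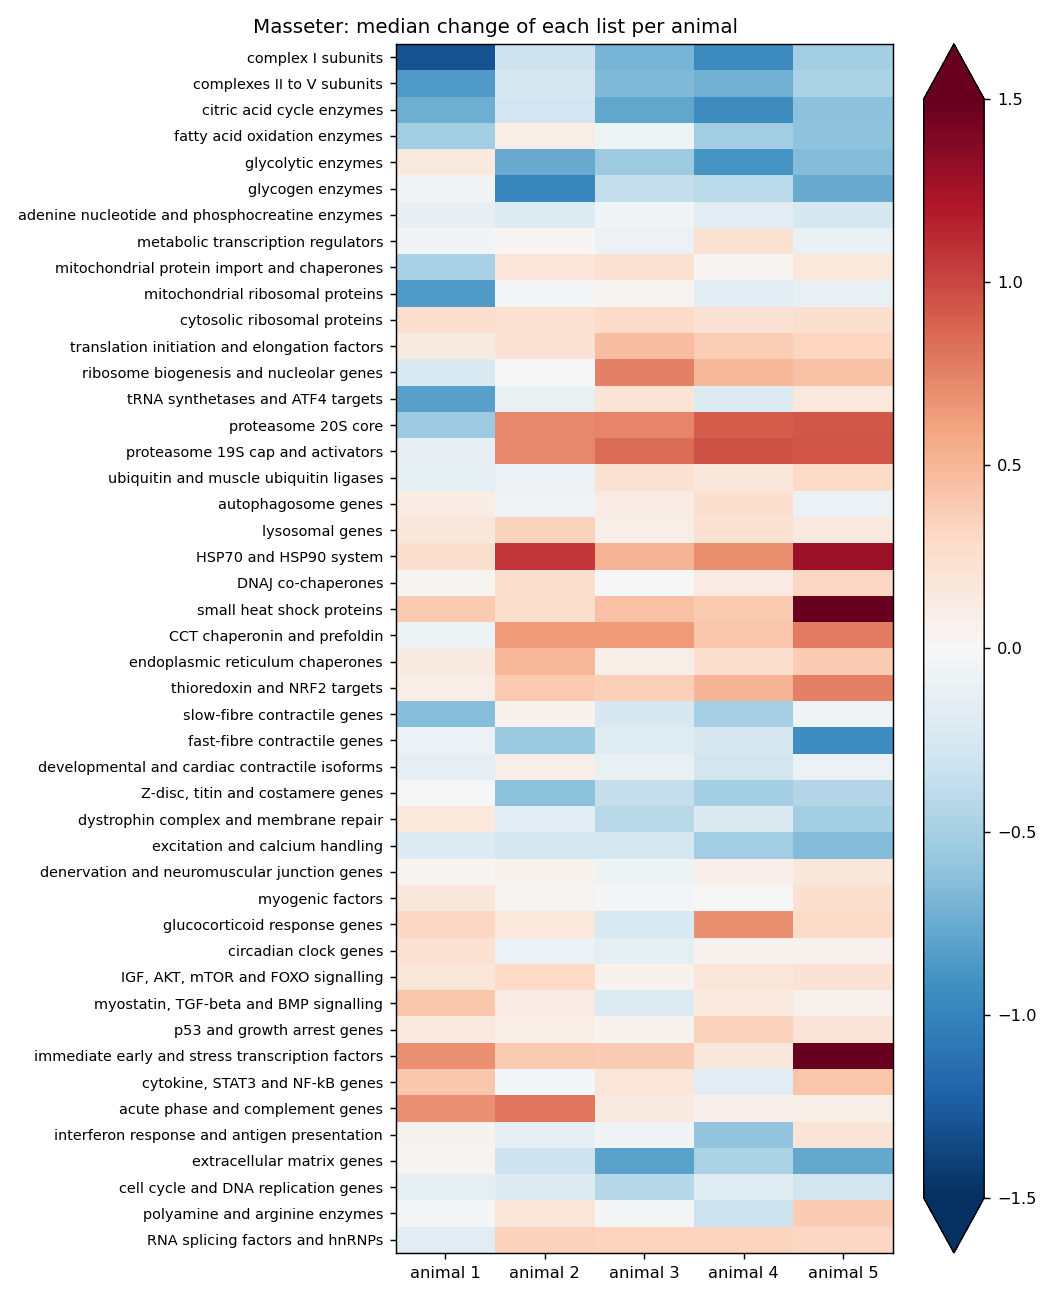
Median log2 change of each list (rows) in each animal (columns), day 5 minus day 1, from blue (lower) to red (higher), with the colour scale ending at -1.5 and 1.5. Respiratory chain and citric acid cycle rows are blue and cytosolic ribosomal protein, HSP70 and immediate early rows red in all 5 animals, whereas the proteasome rows are blue in animal 1 and red in the other 4.

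A block for animal sets each day 5 array against the day 1 array of the same animal. With it, the smallest p-values were those of AGO4, RUNX1, TMBIM1, TTC9, MAP2K6, ACY1, C1QTNF3, RASL12, SLC4A8 and MFAP5. The SE and adjusted p printed for genes in this paragraph come from the fit without a block. MAP2K6, a kinase that activates p38, had 8.34, 8.35, 8.20, 8.37 and 8.43 at day 1 and 6.50, 6.66, 6.76, 6.62 and 6.97 at day 5, and its changes per animal lay between -1.84 and -1.44 (3.10-fold, change -1.63, SE 0.10, limma adjusted p = 3.47e-05). AGO4, an Argonaute protein that binds small RNAs, rose 4.81-fold (change 2.27, SE 0.22, limma adjusted p = 0.000318), with changes from 1.92 to 2.57. TMBIM1 rose 4.02-fold (change 2.01, SE 0.21, limma adjusted p = 0.000435), with changes from 1.73 to 2.24, and the homolog column gives its probe set another name. ACY1, an aminoacylase, fell 5.15-fold (change -2.37, SE 0.16, limma adjusted p = 5.36e-05).

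At the other end were genes whose change ranged most widely over animals. CSRP3, a muscle LIM protein of the Z-disc, had 13.23, 13.29, 12.85, 10.15 and 8.91 at day 1 and 9.08, 11.28, 7.81, 11.38 and 12.05 at day 5. It was lower at day 5 in animals 1, 2 and 3 and higher in animals 4 and 5, whose day 1 arrays were the low ones (change -1.36, SE 1.04, limma adjusted p = 0.424). MYOM2, an M-band protein of fast fibres, had 8.0002, 13.45, 6.59, 10.14 and 11.31 at day 1 and 8.89, 5.44, 5.27, 6.80 and 4.99 at day 5, higher at day 5 in animal 1 and lower in the other 4 (change -3.62, SE 1.22, limma adjusted p = 0.0742). Without the day 5 array of animal 1 its adjusted p was 0.032, and without the day 1 array of animal 3 it was 0.0313. EGF, a growth factor, had 7.98, 11.13, 6.23, 8.29 and 7.82 at day 1 and 10.33, 5.72, 5.06, 5.02 and 4.53 at day 5, with animal 1 the 1 high array at day 5 (limma adjusted p = 0.242, and 0.0186 without that array).

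Where masseter differed from biceps femoris was tested as the difference of the changes. The sources used here do not state whether the muscles were normalized together. When the values of each array were sorted, a masseter and a biceps femoris array differed by at least 0.52 at the rank furthest apart, and 2 masseter arrays by at most 0.22. The BioC spike-in of the biceps femoris arrays, a control added before hybridisation, ran from 8.30 to 9.45 at day 1 and from 7.83 to 8.13 at day 5 (p = 0.0286 by a two-sided exact permutation test, the smallest that 4 against 4 allows). Its part was not tested. The difference was called for 48 of 23999 probe sets (0.2%), 16 with a higher and 32 with a lower change in masseter, and 11 genes were called both there and in masseter, of which 10 are described.

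OLFM1 rose by 4.14 in masseter and by 1.20 in biceps femoris, both on the log2 scale (difference 2.94, SE 0.57, limma adjusted p = 0.0465). KAT2B, a histone acetyltransferase, stood at 9.86, 10.33, 10.19, 10.16 and 9.93 at day 1 and 11.59, 11.72, 12.15, 11.52 and 11.43 at day 5 in masseter (3.004-fold, change 1.59, SE 0.14, limma adjusted p = 0.00024). Its change in biceps femoris was 0.38 (SE 0.12), and the difference was 1.20 (SE 0.20, limma adjusted p = 0.0263). MAMDC2, a secreted proteoglycan, fell by 2.56 in masseter and by 0.82 in biceps femoris (difference -1.74, SE 0.32, limma adjusted p = 0.0451). GCDH, a mitochondrial enzyme of lysine breakdown, had 8.43, 8.15, 8.46, 8.31 and 8.50 at day 1 and 7.21, 7.23, 7.56, 6.86 and 6.97 at day 5 in masseter, without overlap of the days (2.30-fold, change -1.20, SE 0.13, limma adjusted p = 0.000557). It changed by 0.26 (SE 0.16) in biceps femoris (difference -1.47, SE 0.21, limma adjusted p = 0.0107). MMUT, the mitochondrial methylmalonyl-CoA mutase that handles carbon from branched amino acids, fell 1.74-fold in masseter (change -0.80, SE 0.14, limma adjusted p = 0.00476) and changed by 0.24 (SE 0.08) in the thigh (difference -1.04, SE 0.17, limma adjusted p = 0.0263). In biceps femoris alone 17.2% of probe sets were called. AHCYL1, a regulator of calcium release, and the integrin ITGB6 fell in both muscles and by less in masseter, with differences of 1.19 (SE 0.15, limma adjusted p = 0.00644) and 1.68 (SE 0.33, limma adjusted p = 0.0467). ITGB6 lay between 3.00 and 3.85 on all masseter arrays, near their lower end, and its masseter call was lost in a fit of all 18 arrays (adjusted p = 0.134).

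The others were OPCML, LYAR and ZXDC. Masseter changes of OPCML and LYAR were 0.58 and 0.33. LYAR lost its masseter call with a block for animal (adjusted p = 0.0996) and without any 1 of 8 arrays, all but the day 5 arrays of animals 1 and 4 (adjusted p up to 0.0924). Another OPCML probe set was called in the opposite direction. ZXDC, whose probe set the homolog column names otherwise, fell by 1.71 in masseter (difference -1.56, SE 0.30, limma adjusted p = 0.0467). With replicate numbers as a block no difference was called by limma (2800 probe sets had an unadjusted p under 0.05, and 2961 without the block), and leaving out 1 array at a time gave between 9 and 266 calls.

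**Figure D5:**
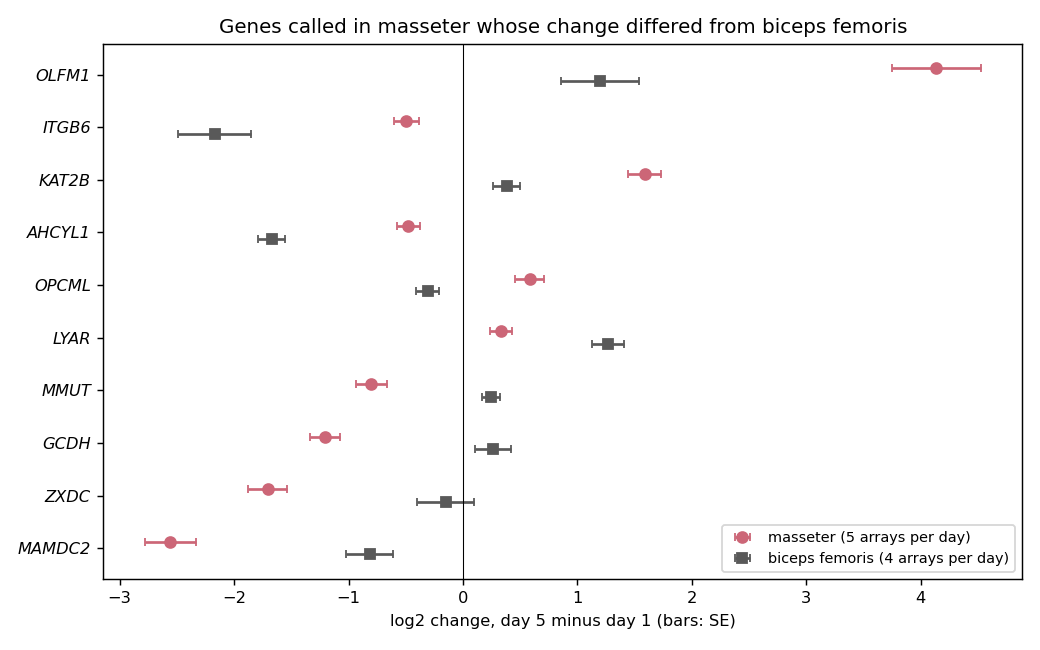
Log2 change by day 5 (horizontal axis, bars are SE) in masseter (red circles, 5 arrays per day) and biceps femoris (grey squares, 4 arrays per day) of 10 genes called in masseter and in the difference between the muscles. MAMDC2, ZXDC, GCDH and MMUT lie further to the left in masseter, and OLFM1, KAT2B and OPCML further to the right.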

How the data were processed

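RNA of masseter was measured on Affymetrix porcine arrays with 24123 probe sets. The deposited values are log2 signals that the authors made with RMA, per the submitters' processing notes. The deposited table on biceps femoris also holds the authors' p-value and a log-odds score per probe set, per the file headers, which were not used. Genome build and array preparation steps beyond the labels are not given in the sources used here.

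Samples were grouped by muscle and day from their titles. From the log2 values, 124 control probe sets were left out and day 5 was set against day 1 with limma 3.58.1 in R 4.3.3, two-sided, without a block, with Benjamini-Hochberg adjustment over 23999 probe sets and a threshold of 0.05. Changes are day 5 minus day 1 on the log2 scale, and folds are 2 to that power. Of the probe sets, 18868 named 1 gene each (4986 by the pig symbol, 13848 by the human homolog and 34 by the product name), 91 had several symbols and 5040 no name. The number of arrays limits the precision. Tables were made with pandas 2.3.3 and figures with matplotlib 3.10.9, and the fit was tested on simulated data.

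Muscles may have been normalized apart, so only changes within a muscle were set against each other, in 1 limma fit of all 18 arrays. The biceps femoris labels name no animals, and arrays of the 2 muscles were taken as independent. Masseter numbers pair the arrays because the descriptions give the same animal. Deviations of same-numbered arrays from their group means correlated by -0.03 to 0.12 over probe sets. Those of day 1 and day 5 arrays with different numbers correlated by -0.15 to 0.14. Of the day 1 arrays, 2 correlated best with the day 5 array of their own number. The correlation within animals in the fit with a random block was -0.02.

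Named genes were, by rule, the 15 largest rises and falls without overlap of the days, the 3 called members of smallest p in each list, the 10 smallest p with the animal as a block, the 8 widest ranges over animals, up to 6 differences from biceps femoris in each direction, and a fixed set. Exceptions are marked as chosen after their values were seen. The members, the lists and this rule were chosen with earlier results of these data known. Alternatives were the animal as a block (fixed or random), trended and robust variance, array weights, quantile normalization, median centring, a filter on the lowest 30 percent of probe sets, a fit of all arrays, and leaving out arrays or animals. List counts without the day 5 array of animal 1, and with the block, were added after seeing the data. A few genes are not reported here.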

Additional observations from a re-analysis of the deposited data

Results flagged for a closer look

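In 478 groups of 5 arrays, each a gene or a list of the text at 1 day, 44 had 1 array whose gap to its nearest neighbour was over 0.71 of the range. Chance alone flags about 1 in 20 such groups. Genes share arrays, so these are not independent.

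The day 5 array of animal 1 was most often the one apart. It was lowest for ADRM1 (8.08), CCT4 (11.69), CDKN1A (11.17), RUNX1 (9.19) and TTC9 (10.04), and highest for ECI1 (11.16), EGF (10.33), NDUFB11 (11.11) and OPCML (7.02). Its mean level was lowest for mitochondrial ribosomal proteins (8.62), translation factors (10.70), the 20S proteasome (10.20), the 19S proteasome (9.72) and splicing factors (9.27), and highest for Z-disc and costamere genes (11.70). On the day 5 array of animal 5, ATF3 (10.79), EGR1 (11.22), IL6 (7.19) and the mean of immediate early genes (9.01) were highest. C1QTNF3 (4.88), HLF (5.57), MB (12.74), MRPL30 (9.44) and PADI2 (7.18) were lowest there.

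At day 1 the array of animal 2 was highest for AMPD3 (7.26) and FKBP5 (11.16) and lowest for DLD (12.05), ECI1 (11.53), HRC (8.83) and MB (13.70). Its list means were highest for adipocyte markers (9.20), glycolytic enzymes (11.40), glycogen enzymes (10.93) and clock genes (7.93) and lowest for fatty acid oxidation (10.63). The day 1 array of animal 4 was highest for ATF3 (7.34), CCL2 (10.75), CXCL2 (8.56), ICAM1 (11.44) and CPA1 (6.03) and lowest for CCT4 (11.003). That of animal 3 was highest for DNAJA1 (9.31), HMOX1 (7.40) and the mean of cell cycle genes (6.76).

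The change in masseter minus that in biceps femoris passed the test for 10 genes of the text called in masseter. It was above 0 for OLFM1 (2.94), ITGB6 (1.68), KAT2B (1.20), AHCYL1 (1.19) and OPCML (0.89). It was below 0 for MAMDC2 (-1.74), ZXDC (-1.56), GCDH (-1.47), MMUT (-1.04) and LYAR (-0.93).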

How the results depend on the processing

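Of 224 genes put through the alternatives, 170 kept their direction and their side of the threshold under all of them. NR3C1, which was not called, had a change of 0.0029 with array weights, 0.05 without the day 1 array of animal 2 and 0.20 without the day 5 array of animal 2, and leaving out 1 array gave -0.17 to 0.20; the cause was not tested. The 3318 probe sets called in masseter (1755 higher, 1563 lower) became 2356 (1259 and 1097) with the replicate block by animal, 2161 of them shared. Other settings gave 3088 with trended variance to 4807 with array weights. Leaving out 1 array gave 2047 (without the day 1 array of animal 5) to 4628 (without the day 5 array of animal 1), with 1049 to 2539 higher and 998 to 2089 lower. Leaving out both arrays of an animal gave 1120 for animal 5 (563 higher and 557 lower), 1450 for animal 4 (754 and 696), 2182 for animal 2 (1088 higher), 2461 for animal 3 and 3672 for animal 1, with fewer arrays in each fit.

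The 48 called differences from biceps femoris (16 higher, 32 lower) became 527 with array weights (167 and 360), 24 with trended variance (9 and 15) and 0 by limma with the replicate block, where the smallest adjusted p was 0.082 and 2800 probe sets had an unadjusted p under 0.05. Leaving out 1 array gave 9 (without the day 5 array of biceps femoris replicate 3) to 266 (without that of replicate 1), with 3 to 86 higher and 6 to 180 lower. The causes were not tested. Over all 50 probe sets of complex I in place of 1 per gene, 34 fell and 1 rose (median -0.67), and over all 135 of cytosolic ribosomal proteins 44 rose and none fell (median 0.21). Genes near the lower end of the arrays have folds that are not exact.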
